A study of Mus musculus with 6 samples.

Results

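The canonical Wnt ligands are the secreted Wnt proteins mostly tied to signalling through β-catenin. The 10 genes Wnt2, Wnt2b, Wnt3, Wnt3a, Wnt6, Wnt7b, Wnt9a, Wnt10a, Wnt10b and Wnt16 were chosen by name, not by a cut on their values. Earlier results of these data were known when they were chosen. All 10 were measured among the 21938 genes of the deposited table. RNA came from the soft palate, the muscular rear part of the palate, of mouse embryos at E14.0. The 3 mutant libraries (replicates 5, 6 and 7) came from Osr2-Cre;b-cateninfl/fl embryos, in which a Cre recombinase made under control of Osr2, a gene of palatal mesenchyme, deletes floxed β-catenin. The 3 control libraries (replicates 1, 2 and 3) carried the floxed alleles without Cre per the protocol, while another label gives their genotype as wild type. Values per library are given below in the order of replicates 5, 6 and 7 for mutants and 1, 2 and 3 for controls. The labels do not say whether a library came from 1 embryo or a pool, so a p-value here covers library-to-library spread, which may be technical.

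Wnt proteins are made with a lipid that the enzyme Porcn attaches, are carried to the cell surface by Wls, and act on nearby cells by binding a Frizzled receptor together with the coreceptor Lrp5 or Lrp6. In the receiving cell this stabilises β-catenin, which enters the nucleus and switches on targets with TCF/LEF factors, among them feedback inhibitors such as Axin2 and Nkd1. β-catenin thus acts downstream of the ligands, and the ligand genes are transcribed in sending cells that may lie in another layer of the tissue. Wnt signals pass between the epithelium and the mesenchyme of many embryonic organs, teeth and palate included.

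Promoter sequence was set out for Wnt6 and Wnt10b, both highest in the same control library (replicate 2), for Wnt16, whose profile over the libraries was nearest to that of Wnt6, and for Wnt3, the single member with a TCF/LEF core in the window. These 4 were picked after the profiles and the motif matches were seen. Wnt7b and Wnt10a had no entry in the RefSeq table used. Each line gives the 250 bases before the annotated start (RefSeq, GRCm38.p6), read 5′ to 3′ on the strand of the gene, with capitals for any CTTTG or its reverse complement CAAAG.
Wnt6, chr1:74771642-74771891, plus strand: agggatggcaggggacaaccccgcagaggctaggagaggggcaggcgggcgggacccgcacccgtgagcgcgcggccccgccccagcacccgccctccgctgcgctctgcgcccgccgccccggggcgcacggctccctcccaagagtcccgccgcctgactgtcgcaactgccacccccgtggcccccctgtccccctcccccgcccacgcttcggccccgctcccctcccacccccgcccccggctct
Wnt10b, chr15:98778151-98778400, minus strand: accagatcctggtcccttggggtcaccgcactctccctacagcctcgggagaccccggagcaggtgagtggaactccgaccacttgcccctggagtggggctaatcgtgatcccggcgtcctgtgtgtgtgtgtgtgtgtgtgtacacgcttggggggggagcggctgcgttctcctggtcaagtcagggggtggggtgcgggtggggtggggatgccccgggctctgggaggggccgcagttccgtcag
Wnt16, chr6:22287977-22288226, plus strand: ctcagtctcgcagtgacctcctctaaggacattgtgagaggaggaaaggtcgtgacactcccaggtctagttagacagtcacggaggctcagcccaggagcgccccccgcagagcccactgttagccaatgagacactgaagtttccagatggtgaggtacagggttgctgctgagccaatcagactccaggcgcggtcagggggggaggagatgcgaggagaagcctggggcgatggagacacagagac
Wnt3, chr11:103773925-103774174, plus strand: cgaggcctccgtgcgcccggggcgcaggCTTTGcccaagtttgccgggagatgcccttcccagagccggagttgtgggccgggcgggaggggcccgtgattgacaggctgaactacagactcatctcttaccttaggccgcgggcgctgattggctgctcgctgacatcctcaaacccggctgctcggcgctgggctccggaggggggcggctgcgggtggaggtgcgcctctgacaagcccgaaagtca
The TCF/LEF core CTTTG, searched on both strands, was in 1 of the 8 member windows with an entry and in 48.6% of all 32851 promoter windows of the same length. In windows of 300 bases, which run past the start, it was in 2 of the 8, Wnt3 and Wnt10b, and in 53.9% of all windows. The longer form CTTTGAT, which contains the core, was in 0 of the 8 and in 3.21% of all windows. TATAAA was in 0 of the 8 and in 12.4%. The member windows were rich in G and C, from 59.2% in Wnt16 to 87.6% in Wnt3a, and held a median of 25 CG dinucleotides against 6 over all windows. Wnt16, with 9 CG dinucleotides, was the member closest to that median. Of 5 spellings of the TCF/LEF site scanned on both strands, those without an N are given, and the spellings and window were settled after the matches were seen. A window without these letters says nothing on factors bound elsewhere.

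Several members lie beside another Wnt gene. Wnt6 (chromosome 1, 74771892 to 74785322, GENCODE vM21 on GRCm38) and Wnt10a (74791516 to 74804179) are on the same strand with 6193 bases and no coding gene between them. Wnt3a (chromosome 11, 59248033 to 59290752) and Wnt9a (59306928 to 59333552) are 16175 bases apart on opposite strands. Some members overlap an annotated non-coding gene, which matters because strand use in counting is not given: Wnt7b and the antisense gene AU022754 share 2222 bases, Wnt6 holds the antisense gene Gm29539, and Wnt2b holds the sense intronic gene Gm43846. AU022754 averaged 2.12 CPM, reads scaled to a common library total, and without strand only reads in the shared stretch cannot be assigned between it and Wnt7b.

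All 10 ligands had a value above 0 in every library, and they were transcripts of low to middling abundance. Per kilobase of annotated exon, averaged over the 6 libraries, Wnt7b (5.08 ± 1.19 CPM per kb, SD, n = 6) and Wnt6 (4.87 ± 1.58) came first, and each was above the other in 3 of 6 libraries. Wnt6 was above Wnt10b (2.65 ± 0.80) in 6 of 6. Wnt10b, Wnt10a (2.19 ± 0.66), Wnt16 (1.94 ± 0.90) and Wnt9a (1.89 ± 0.43) formed a run in which neighbours differed by less than their spread. Within it Wnt10b was above Wnt10a in 4 of 6 libraries, Wnt10a above Wnt16 in 5 of 6 and Wnt16 above Wnt9a in 3 of 6. Wnt2b (1.36 ± 0.24) and Wnt2 (1.19 ± 0.20) followed, Wnt2b being higher in 5 of 6 libraries. Wnt3a (0.47 ± 0.23) lay below Wnt2 in 6 of 6 libraries, and Wnt3 (0.27 ± 0.15) was lowest.

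**Figure D1:**
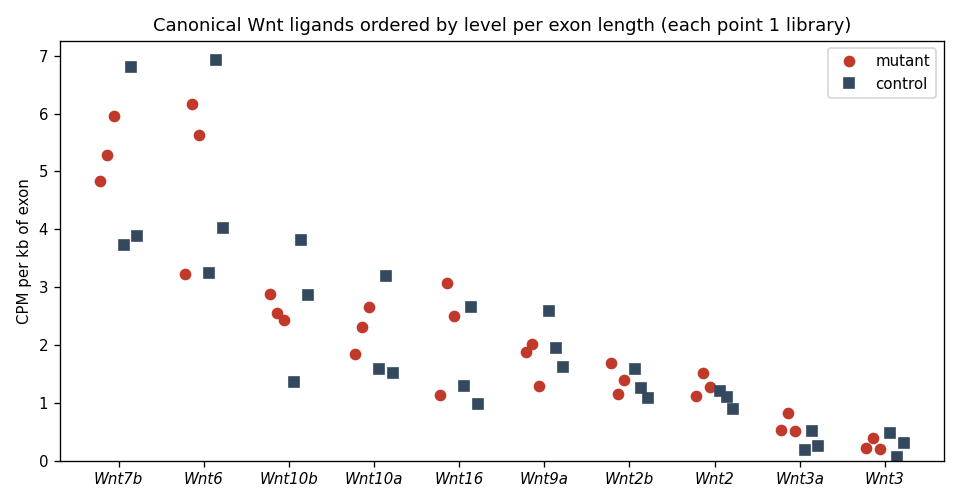
CPM per kilobase of annotated exon (y axis) for each ligand, ordered by the mean of 6 libraries, with mutant libraries as circles on the left of each gene and control libraries as squares on the right. Wnt7b and Wnt6 stand above the other ligands on average, and the groups overlap for every gene.

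Ligand levels in mutants and controls were compared next. Only the mutants carried the Osr2-Cre allele, so its presence and the loss of β-catenin cannot be told apart here. No ligand passed an adjusted p of 0.05 in limma on log2(CPM + 1), with Benjamini-Hochberg adjustment over all genes: 0 of 10, where 0.479% of all genes passed. At an unadjusted p below 0.05 there was 1 of 10, Wnt3a, against 21.4% of all genes. The groups overlapped for all 10 members, so 0 of 10 were free of overlap, against 27.8% of all genes. None of the 10 was in the authors' filtered list, which holds 11.1% of the table by a filter that no source used here states. The fitted change was positive for 9 of 10 members (56.1% of all genes), with a median log2 change of 0.12 beside 0.04 over all genes. Among the marker lists described below, it was positive for 19 of 20 epithelial markers (median 0.25) and 9 of 9 airway epithelial markers (median 0.53). For palatal mesenchyme it was positive for 4 of 16 markers (median -0.18). The mean CPM was higher in mutants for 7 of the 10 ligands. In Wnt3 and Wnt10b the fitted change was slightly positive and the mean slightly lower in mutants. Summed over the 10 genes the level was 68.1, 85.7 and 82.2 CPM in mutants and 59.4, 96.8 and 59.1 CPM in controls, so the mutants lay between the control values.

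The series' targeted gene and its Cre locus give the setting for these values. Ctnnb1, which encodes β-catenin, had 584.6, 633.4 and 581.5 CPM in mutants and 698.5, 784.5 and 671.4 CPM in controls (log2 change -0.26, 95% interval -0.48 to -0.03, adjusted p = 0.183 in limma). Whole-gene values also count reads outside the deleted exons and cells without Cre. Osr2 had 13.0, 19.4 and 15.9 CPM in mutants against 34.5, 56.2 and 49.9 CPM in controls, and passed the test (adjusted p = 0.0285 in limma), as did 105 genes in all. Every one of these calls, that of Osr2 included, was lost without mutant replicate 5 or 6, without control replicate 1 or 3, or with no intensity trend in the test, where 0 genes passed. Libraries held 10018602 to 15089336 counted reads, read from the step between low values, so 3 reads, the most that a count of 0 allows, correspond to 0.199 to 0.299 CPM. Of the 10 ligands, 9 had values that were whole reads within 0.02 of a read in every library, and Wnt7b had reads counted in parts.

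Wnt3a, a ligand widely used to switch on β-catenin signalling in culture, had the smallest p of the 10. It measured 1.47, 2.28 and 1.39 CPM in mutants and 0.48, 1.40 and 0.70 CPM in controls. The mutant values were 18, 30 and 21 reads and the control values 6, 14 and 9 reads. All 3 mutants were above the control mean, but mutant replicate 7 and control replicate 2 differed by less than the value of 1 read. The mean was 1.71 ± 0.49 CPM in mutants and 0.86 ± 0.48 CPM in controls (SD, n = 3 each), with a log2 change of 0.56 ± 0.24 (SE), a 95% interval of 0.01 to 1.11 and an adjusted p of 0.226 in limma. For so low a gene the added constant shrinks the change, which was 1.00 with a pseudocount of 0.1 (adjusted p = 0.236 in limma). Its neighbour Wnt9a, a ligand known for its part in joint formation, pointed the other way with 6.27, 6.69 and 4.31 CPM in mutants and 8.64, 6.49 and 5.37 CPM in controls. Wnt9a was the single member with a negative fitted change (log2 change -0.21 ± 0.22, 95% interval -0.71 to 0.29, adjusted p = 0.615 in limma), and its groups overlapped. Leaving out 1 library moved the change of Wnt9a between -0.35 (without control replicate 3) and -0.046 (without mutant replicate 7), and it was -0.050 without control replicate 1.

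Wnt3, a close relative of Wnt3a needed for the body axis in the mouse, had 0.65, 1.22 and 0.60 CPM in mutants and 1.44, 0.20 and 0.93 CPM in controls. The mutant values were 8, 16 and 9 reads and the control values 18, 2 and 12 reads. Counting error alone spans much of this: the 2 reads of control replicate 2 have an exact Poisson interval of 0.0242 to 0.721 CPM. The fitted log2 change of Wnt3 was 0.02 with a 95% interval of -0.63 to 0.66. A change within that range, on the log2(CPM + 1) scale, is not excluded by these libraries. The coefficient of variation of Wnt3 was 41.8% in mutants and 72.7% in controls, where counting error would give 30.2% in mutants and 30.6% in controls. It turned to -0.27 without control replicate 2 and to -0.13 without mutant replicate 6.

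**Figure D2:**
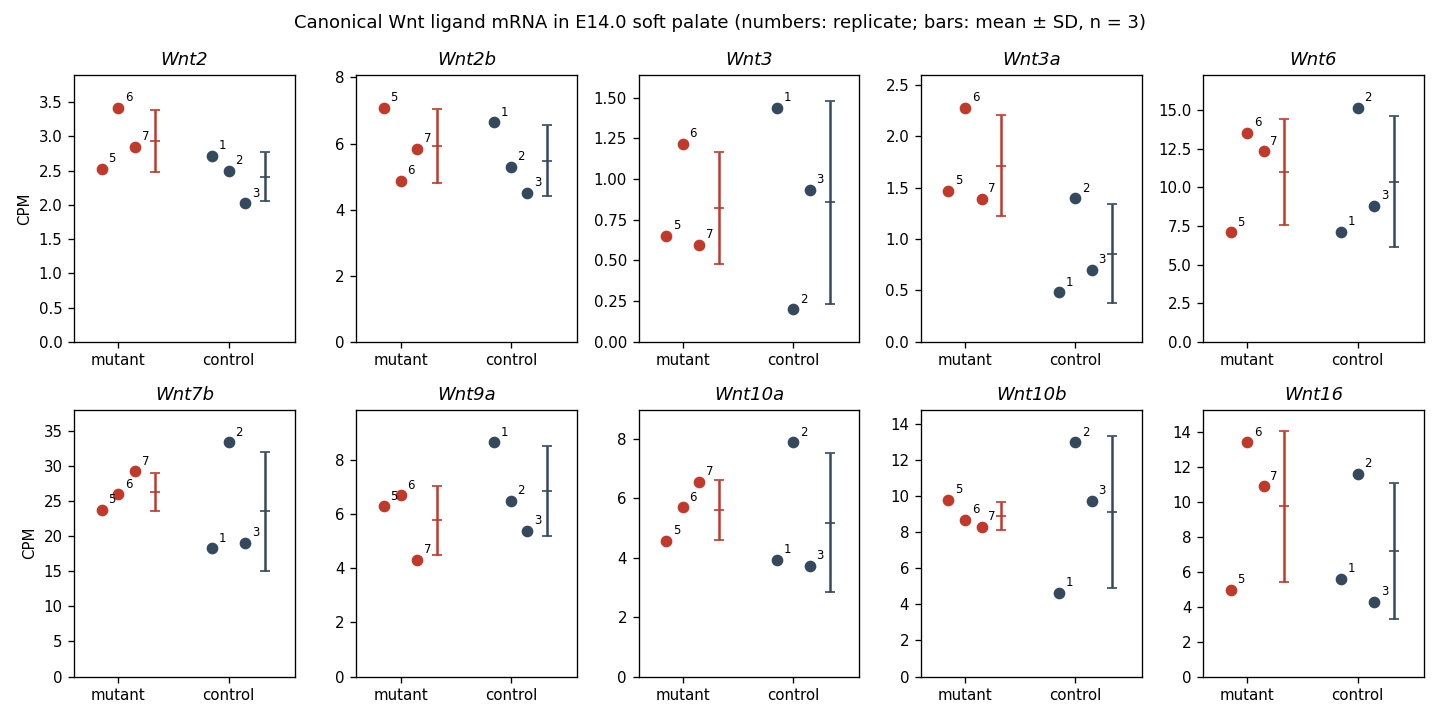
CPM of each ligand (y axis from 0, a scale for each panel) in 3 mutant libraries on the left and 3 control libraries on the right, with replicate numbers beside the points and bars for mean ± SD. The groups overlap in all 10 panels, and control replicate 2 is the highest library for Wnt6, Wnt7b, Wnt10a and Wnt10b.

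Wnt7b, a ligand that in the mouse is made by epithelium of the embryonic lung and kidney, had the most reads of the members, though not clearly more than Wnt6 per exon length. It measured 23.7, 25.9 and 29.2 CPM in mutants and 18.2, 33.3 and 19.0 CPM in controls. All 3 mutants lay between the lowest control libraries and control replicate 2. The mean was 26.3 ± 2.75 CPM in mutants and 23.5 ± 8.49 CPM in controls (SD, n = 3 each; log2 change 0.20 ± 0.21, adjusted p = 0.620 in limma). Without control replicate 2 the log2 change was 0.47, with an unadjusted p of 0.00657 and an adjusted p of 0.0926 in limma, and without control replicate 1 it was 0.05. The size of the Wnt7b change thus depended on single control libraries.

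Wnt6 and Wnt10a, neighbours on chromosome 1, are ligands of embryonic surface ectoderm, and human WNT10A is known for missing teeth when mutated. Wnt6 had 7.09, 13.5 and 12.3 CPM in mutants and 7.12, 15.2 and 8.80 CPM in controls (log2 change 0.09, 95% interval -0.58 to 0.77). Wnt10a had 4.56, 5.70 and 6.56 CPM in mutants and 3.92, 7.89 and 3.74 CPM in controls (log2 change 0.15, 95% interval -0.46 to 0.76). In both genes control replicate 2 was the highest library of the 6 and every mutant value lay below it. The fitted change of Wnt6 turned to -0.12 without control replicate 1 and that of Wnt10a to -0.01 without control replicate 3.

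Wnt10b, known for favouring bone over fat formation in the mouse, had 9.78, 8.67 and 8.28 CPM in mutants and 4.64, 13.0 and 9.73 CPM in controls. The mutants were closely grouped (coefficient of variation 8.71%) inside a wide control range (46.1%). Counting error would give 9.14% in mutants and 9.79% in controls, so the mutant spread was no larger than counting error. Its log2 change was 0.06 (95% interval -0.62 to 0.75) and turned to -0.31 without control replicate 1. Wnt16, a ligand known for cortical bone strength in the mouse, had 4.97, 13.4 and 10.9 CPM in mutants and 5.60, 11.6 and 4.28 CPM in controls. Its log2 change of 0.41 had the widest interval of the 10, -0.48 to 1.29 (adjusted p = 0.582 in limma), with 2 of 3 mutants above the control mean. Leaving out 1 library moved the change of Wnt16 between 0.14 (without control replicate 3) and 0.78 (without mutant replicate 5). It was 0.15 without mutant replicate 6, 0.77 without control replicate 2 and 0.07 with the summed epithelial markers described below as a covariate, and the direction held in each.

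Wnt2 and Wnt2b, which together specify the lung from the foregut in the mouse, had the smallest ratios of the highest to the lowest library, 1.69 and 1.57. Wnt2 had 2.53, 3.42 and 2.85 CPM in mutants and 2.72, 2.50 and 2.02 CPM in controls, and all 3 mutants were above the control mean (log2 change 0.20 ± 0.19, adjusted p = 0.574 in limma). Wnt2b had 7.09, 4.87 and 5.83 CPM in mutants and 6.64, 5.29 and 4.52 CPM in controls (log2 change 0.10 ± 0.20, adjusted p = 0.816 in limma). The spread of Wnt2 between libraries, a coefficient of variation of 15.5% in mutants and 14.7% in controls, was no larger than counting error would give for its reads, 15.9% in mutants and 18.8% in controls. For Wnt7b counting error would give 5.29% in mutants and 6.10% in controls, and the spread was 10.5% in mutants and 36.1% in controls.

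**Figure D3:**
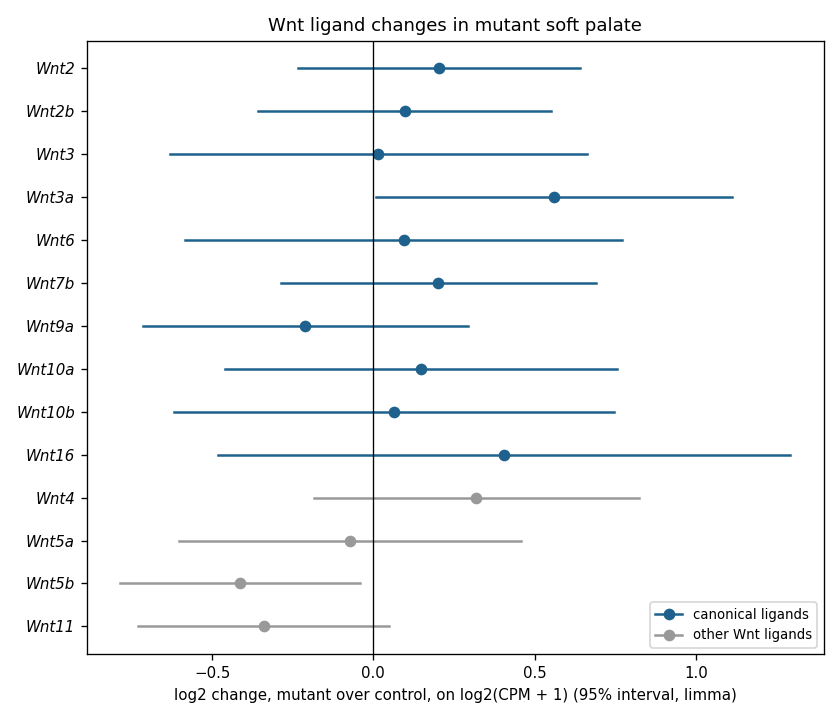
Log2 change of mutant over control on the log2(CPM + 1) scale (x axis) with 95% limma intervals for the 10 canonical ligands and, in grey, 4 other Wnt ligands. Among canonical ligands only the interval of Wnt3a, 0.01 to 1.11, misses 0, and none passed the adjusted threshold.

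Variation between libraries within a group was shared by some ligands. Likeness was measured as the root mean square distance between log2(CPM + 1) profiles over the 6 libraries, each centred on its own mean, for the 7 members averaging at least 5 CPM and all listed Wnt pathway and cell type genes at that level (156 genes). Wnt7b and Wnt10a, which lie on different chromosomes, were nearest to each other (0.069), where the median distance of Wnt7b to the other genes was 0.417. For both the second nearest gene was Krt8, a keratin of simple epithelia (0.101 for Wnt7b and 0.096 for Wnt10a). Wnt6 was nearest to Esrp2, an epithelial splicing regulator (0.129), and to Cdh1, the epithelial cadherin (0.132). Wnt16 was nearest to Wnt6 (0.273) and Cdh1 (0.294), at a larger distance. Its own spread, the root mean square of its centred profile, was also larger, 0.575 against 0.400 for Wnt6, and its median distance was 0.637. Distances of different members are thus not on a common footing. Libraries share depth and tissue makeup across all genes, and 6 libraries give a description only.

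The remaining members had other nearest genes. Wnt2b was nearest to Kdr, an endothelial receptor (0.113), and to Lrp6 (0.118), with an own spread of only 0.197 and a median distance of 0.404. Wnt9a was nearest to Pdgfra, a receptor of mesenchymal cells (0.088), and to Csf1r, a macrophage receptor (0.112). Wnt10b was nearest to Rnf43, a ubiquitin ligase that removes Frizzled (0.190), and to Meis2 (0.264). The chromosomal neighbours Wnt3a and Wnt9a differed in their highest library, mutant replicate 6 for Wnt3a and control replicate 1 for Wnt9a.

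**Figure D4:**
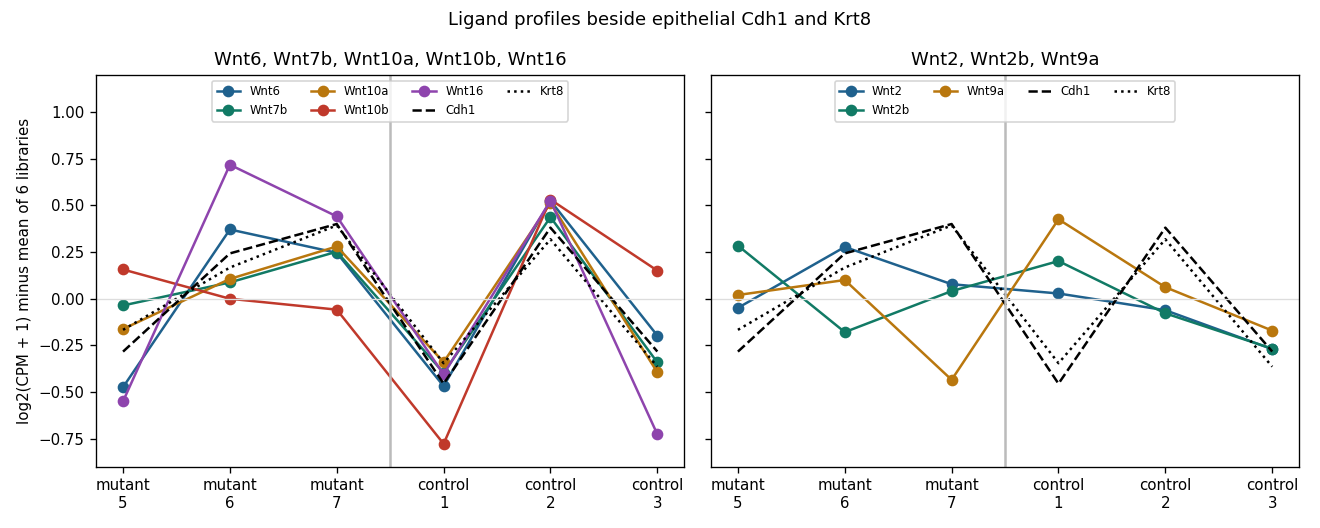
Log2(CPM + 1) minus the mean of the 6 libraries (y axis) for 5 ligands on the left panel and 3 on the right, with Cdh1 (dashed) and Krt8 (dotted) in both; mutant libraries are left of the grey line, and lines only join the values of a gene. Wnt6, Wnt7b, Wnt10a and Wnt16 are high in control replicate 2 and low in control replicates 1 and 3, as Cdh1 and Krt8 are, while Wnt2, Wnt2b and Wnt9a are not. Wnt10b, also on the left, is high in control replicate 2 and low in control replicate 1 but above its mean in control replicate 3.

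Epithelial markers were therefore set beside the ligands. Cdh1 had 221.1, 318.8 and 355.8 CPM in mutants and 196.1, 350.9 and 221.1 CPM in controls. The 20 epithelial markers, none at 0 in any library, summed to 3422 to 5081 CPM in mutants and 2593 to 4221 CPM in controls; 0 of 20 passed the adjusted threshold and 4 were higher at an unadjusted p below 0.05 (limma; 13.4% of all genes were). The smallest p among them had Krt15, a basal keratin, at 686.6 CPM on average in mutants and 451.2 CPM in controls (adjusted p = 0.0910 in limma), and Krt18, the partner of Krt8, at 105.7 CPM in mutants and 72.2 CPM in controls (adjusted p = 0.113 in limma). The 9 measured markers of ciliated and secretory airway epithelium summed to 495.2 to 691.2 CPM in mutants and 305.8 to 563.7 CPM in controls, and the 16 markers of palatal mesenchyme, none at 0 in any library, to 5930 to 8590 CPM in mutants and 6635 to 9713 CPM in controls. In bulk tissue fewer cells of a type and less RNA per cell cannot be told apart.

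Per unit of Cdh1, a comparison chosen after its values were seen, the control spread of some ligands was narrower. Wnt7b stood at 9.02 ± 1.48% of the Cdh1 value in mutants and 9.13 ± 0.47% in controls (SD, n = 3 each). Its coefficient of variation in mutants was 16.4% as a ratio and 10.5% as CPM, whereas in controls it was 5.20% as a ratio and 36.1% as CPM. How far the control spread narrowed depended on the marker: against the sum of all 20 epithelial markers the coefficient of variation in controls was 24.7% for Wnt7b, 24.6% for Wnt6 and 32.7% for Wnt10a, where Cdh1 alone gave 8.72% for Wnt6 and 14.1% for Wnt10a and the CPM gave 41.0% for Wnt6 and 45.2% for Wnt10a. Wnt10a stood at 1.90 ± 0.15% in mutants and 1.98 ± 0.28% in controls, and Wnt6 at 3.64 ± 0.54% in mutants and 3.98 ± 0.35% in controls. In controls the Cdh1 ratio varied more than the CPM for Wnt2, Wnt2b, Wnt3 and Wnt9a. In mutants it did so for Wnt2, Wnt2b, Wnt3a, Wnt7b, Wnt9a and Wnt10b. For Wnt2b the coefficient of variation was 44.2% in mutants and 41.8% in controls as a ratio, and 18.8% and 19.6% as CPM. For Wnt10b in mutants it was 35.3% as a ratio and 8.71% as CPM. Cdh1 was already near Wnt6 in profile over these same libraries, so the narrower ratio of Wnt6 is not separate evidence. With the summed epithelial markers as a covariate in limma, Wnt7b had a log2 change of 0.04 (unadjusted p = 0.857), Wnt3a of 0.37 (unadjusted p = 0.164), and Wnt6 turned to -0.24 (unadjusted p = 0.319).

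The machinery that makes and carries the ligands held no called gene. Wls had 121.4, 124.1 and 128.9 CPM in mutants and 129.9, 130.4 and 123.3 CPM in controls (log2 change -0.03, 95% interval -0.21 to 0.14). Porcn averaged 2.95 CPM in mutants and 3.56 CPM in controls (log2 change -0.17, 95% interval -0.70 to 0.35). Of 14 genes for ligand acylation, transport and removal, 0 passed the adjusted threshold and 2 were lower in limma at an unadjusted p below 0.05 (8.07% of all genes were); the list median was -0.10. These were Gpc4, a glypican that holds Wnts at the cell surface (log2 change -0.37, adjusted p = 0.124 in limma), and Tmed2, a cargo receptor of the early secretory pathway (-0.26, adjusted p = 0.216 in limma).

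Other Wnt pathway genes were counted by list, with lists that share some genes; over all genes 13.4% were higher and 8.07% lower at an unadjusted p below 0.05. Of the 4 other Wnt ligands analysed here (Wnt4, Wnt5a, Wnt5b and Wnt11), 0 passed and 1 was lower at an unadjusted p below 0.05, Wnt5b, a ligand mostly tied to signalling without β-catenin. Wnt5b had 6.27, 5.02 and 5.63 CPM in mutants and 7.60, 8.68 and 7.24 CPM in controls, groups that did not overlap, with an adjusted p of 0.194 in limma. Of 20 receptors and coreceptors 0 passed, with 1 higher and 4 lower at an unadjusted p below 0.05. Fzd4 averaged 51.1 CPM in mutants and 77.0 CPM in controls (log2 change -0.57, adjusted p = 0.0772 in limma), and Fzd2 averaged 59.8 CPM in mutants and 88.2 CPM in controls (-0.53, adjusted p = 0.0901 in limma). Of 15 secreted antagonists and agonists 0 passed, with 1 higher and 3 lower at an unadjusted p below 0.05, and Sfrp2, which binds Wnts outside the cell, averaged 409.8 CPM in mutants and 682.8 CPM in controls (adjusted p = 0.107 in limma). Sostdc1, an inhibitor of Wnt and BMP signals, averaged 20.4 CPM in mutants and 29.6 CPM in controls (adjusted p = 0.172 in limma).

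The feedback targets of the pathway had a list median of the opposite sign to that of the ligands, a sign not particular to them. Every other list had a negative median too, except epithelium (0.25) and airway epithelium (0.53). Among the Wnt lists it was -0.21 for the other ligands, -0.10 for receptors and coreceptors and -0.22 for secreted antagonists and agonists. Of 14 feedback targets measured, 0 passed the adjusted threshold. At an unadjusted p below 0.05 in limma 6 were lower and 0 higher (8.07% of all genes were lower and 13.4% higher). The median of the feedback targets was -0.21 where the ligands had 0.12 and all genes 0.04. Nkd1 averaged 22.7 CPM in mutants and 35.9 CPM in controls (adjusted p = 0.0513 in limma) and Axin2 averaged 37.1 CPM in mutants and 53.9 CPM in controls (adjusted p = 0.104 in limma). The difference between the lists was not tested. Skeletal muscle was the list with called genes, 7 of 14 lower (0.283% of all genes were), Pax7 and Myog among them, and these calls were among those lost without any of 4 single libraries (mutant replicate 5 or 6, control replicate 1 or 3) or with no intensity trend. Its summed markers were 4748 to 5852 CPM in mutants and 7076 to 14987 CPM in controls; their part in the ligand values was not tested. The 10 red blood cell markers summed to 791.1 to 1387 CPM in mutants and 1630 to 4816 CPM in controls, with 0 of 10 past the adjusted threshold and 9 lower at an unadjusted p below 0.05 in limma, where 8.07% of all genes were lower. No gene passed among 12 endothelial, 12 neural and glial and 10 macrophage markers (0, 0 and 1 lower at an unadjusted p below 0.05 in limma).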

How the data were processed

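Per the submitters' processing notes reads were aligned with STAR to mm10; no source used here states how reads were counted, with which annotation or with which strand setting. The authors deposited CPM, which scales each library to the same total, with samples in rows, and a constant of 0.0001 on every value, found from the values, was removed. Both deposited tables were read, and the filtered list of 2432 genes held the same values. The tables held 0 columns of per-sample values beyond those matched to the samples.

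Mutant and control were compared on log2(CPM + 1) in R 4.3.3 by limma 3.58.1 (trend on intensity), Benjamini-Hochberg adjustment over 21938 genes, a threshold of 0.05 and no filter on low values. Changes of low genes are understated on this scale. The test was checked on simulated data in which only genes averaging at least 5 CPM were changed, so Wnt2, Wnt3 and Wnt3a are not covered. The simulated spread between libraries was also below that of Wnt6, Wnt7b, Wnt9a, Wnt10a, Wnt10b and Wnt16 in controls. The check therefore does not show what could be found for these. From the step between low values, 63.8 to 67.5% of low values were whole reads within 0.02 of a read, so no count model was fitted. Intervals and floors (3 reads) cover counting error only.

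All 10 members are named by rule. From the other lists the rule gives the called genes, or else the 2 with the smallest p, and the nearest genes by profile; those of cell types with no ligand result beside them are left out. Single members of a list named for their role or their place in the libraries (Wls, Porcn and the Cdh1 ratio) were added after their values were seen. The members and lists were chosen with earlier results of these data known. Gene positions and exon lengths came from GENCODE vM21, on GRCm38, the assembly mm10 names, and promoter windows from RefSeq. The 13 alternatives changed the pseudocount (0.1, 0.5), filter (1 CPM), scaling and prior variance, or left out each library; an epithelial covariate was added after the data were seen.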

Additional observations from a re-analysis of the deposited data

How the results depend on the processing

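No ligand passed the adjusted threshold in the main analysis or in any of the 13 alternatives or with the epithelial covariate (0 of 10; 0 of 9 with the filter at 1 CPM, which left out Wnt3). The count at an unadjusted p below 0.05, 1 in the main analysis, was 0 with a pseudocount of 0.1 and with the epithelial covariate. With single libraries left out it ranged from 0 to 2, the 2 being Wnt3a and Wnt7b without control replicate 2, and was 0 with any other library left out. Over all genes 105 passed; 0 did with no intensity trend, 174 with a robust prior and 3 with the epithelial covariate. With single libraries left out that count ranged from 0 (mutant replicate 5 or 6, control replicate 1 or 3) through 2 (mutant replicate 7) to 452 (control replicate 2). The cause was not tested. With the covariate the log2 change turned to -0.24 for Wnt6, -0.031 for Wnt10a and -0.20 for Wnt10b. With single libraries left out the log2 change ranged from -0.021 to 0.22 for Wnt2b, -0.27 to 0.24 for Wnt3, -0.12 to 0.38 for Wnt6, -0.012 to 0.44 for Wnt10a and -0.31 to 0.35 for Wnt10b. The adjusted p of Wnt3a ranged from 0.116 to 0.448 over all alternatives. Wnt2, Wnt3a, Wnt7b, Wnt9a and Wnt16 kept their direction in all of them, with sizes that moved when single libraries were left out, from 0.12 to 0.28 for Wnt2, 0.41 to 0.76 for Wnt3a, 0.05 to 0.47 for Wnt7b, 0.14 to 0.78 for Wnt16 and -0.35 to -0.046 for Wnt9a. No scaling turned a direction of the 10. Depth limits Wnt3 and Wnt3a most, at 2 to 30 reads a library. No paired analysis was made, because the groups share no replicate number and no label used here gives litters or pairs.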
